A study of Homo sapiens with 4 samples.

Results

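The members described here are TXNIP, its relatives among the arrestin-domain proteins (ARRDC1, ARRDC2, ARRDC3 and ARRDC4), the transcription factor MLXIP and thioredoxin (TXN) in U937, an established monocyte-like cell line grown from a human lymphoma. The 7 genes were chosen by name, with earlier results of these data known. All 14 probe sets that the platform annotation gives to these symbols alone were taken, of 19775 genes and 54675 probe sets on the Affymetrix Human Genome U133 Plus 2.0 array. There were 4 arrays, 1 for each group. They held the combination (Sonazoid together with ultrasound), ultrasound only, Sonazoid only, and control cells given neither. Ultrasound was applied for 1 min at an intensity of 0.3 W/cm2, and Sonazoid at 0.05%. Treated cells were collected 3 h later, and the sources used here do not say whether control cells were held as long. Sonazoid is a contrast agent of gas-filled microbubbles. With 1 array per group there was no replicate check, so no test was made and each difference below is between single arrays.

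TXNIP is an alpha-arrestin that binds reduced thioredoxin and restrains its activity, and it promotes removal of glucose transporters from the cell surface. Its gene is a classic target of MLXIP (MondoA), which pairs with MLX and enters the nucleus when hexose phosphates accumulate; ARRDC4 is another target. Many arrestin-domain proteins of this family carry PPxY motifs that recruit ubiquitin ligases of the NEDD4 family to membrane cargo.

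The start regions of TXNIP, ARRDC4 and ARRDC3 are shown because the TXNIP and ARRDC4 genes are known to respond to MLXIP and because ARRDC3 was the member with the widest range over the arrays. They are RefSeq windows of GRCh38.p14, from 250 bases before to 50 bases after an annotated start, printed 5′ to 3′ along the gene; all 7 members matched, with 10 windows in all. Capitals mark matches, on either strand, to a carbohydrate response element (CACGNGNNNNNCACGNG), an E-box (CACGTG), a forkhead motif (TTGTTTAC), a CCAAT box (CCAAT) or a cAMP response element (TGACGTCA). TXNIP lies on chromosome 1 (chr1:145996530-145996829, minus strand), ARRDC4 on chromosome 15 (chr15:97960453-97960752, plus strand), and the outer and inner starts of ARRDC3 on chromosome 5 (chr5:91383268-91383567 and chr5:91380048-91380347, minus strand).
TXNIP: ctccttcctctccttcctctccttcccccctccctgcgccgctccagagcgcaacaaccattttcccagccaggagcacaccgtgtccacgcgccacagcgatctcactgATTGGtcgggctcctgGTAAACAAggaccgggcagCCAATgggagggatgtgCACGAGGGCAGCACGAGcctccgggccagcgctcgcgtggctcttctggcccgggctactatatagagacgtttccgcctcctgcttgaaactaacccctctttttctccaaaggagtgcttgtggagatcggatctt
ARRDC4: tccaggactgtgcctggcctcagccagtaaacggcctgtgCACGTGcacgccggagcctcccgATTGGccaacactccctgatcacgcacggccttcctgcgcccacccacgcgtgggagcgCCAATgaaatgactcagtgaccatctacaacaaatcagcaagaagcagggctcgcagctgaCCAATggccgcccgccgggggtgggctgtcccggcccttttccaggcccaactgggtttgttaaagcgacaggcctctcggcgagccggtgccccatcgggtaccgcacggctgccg
ARRDC3 outer start: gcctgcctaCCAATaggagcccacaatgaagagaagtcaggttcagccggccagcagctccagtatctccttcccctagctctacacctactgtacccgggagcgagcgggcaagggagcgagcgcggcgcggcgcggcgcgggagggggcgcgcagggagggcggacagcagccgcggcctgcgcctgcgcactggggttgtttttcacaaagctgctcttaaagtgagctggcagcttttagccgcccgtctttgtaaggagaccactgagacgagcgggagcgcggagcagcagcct
ARRDC3 inner start: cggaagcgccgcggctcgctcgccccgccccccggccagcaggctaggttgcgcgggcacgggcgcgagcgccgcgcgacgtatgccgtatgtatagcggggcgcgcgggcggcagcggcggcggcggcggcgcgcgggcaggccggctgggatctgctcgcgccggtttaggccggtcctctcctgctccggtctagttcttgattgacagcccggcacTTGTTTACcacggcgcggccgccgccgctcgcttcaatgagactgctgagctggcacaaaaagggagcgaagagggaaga

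In the TXNIP window shown, the carbohydrate response element, the paired sites through which MLXIP and MLX bind, read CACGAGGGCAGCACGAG and began at position -88 relative to the start. It was the 1 member window of 10 with these letters, which 0.057% of 35116 windows hold. A CCAAT box, the site of the factor NF-Y, lay before it at -105, and another, on the opposite strand, at -140. Between them, at -124, was the forkhead motif, the kind of site that FOXO factors bind, on the opposite strand (GTAAACAA). The inner ARRDC3 window held the same motif at -30, and 0.954% of all windows hold it. The ARRDC4 window held an E-box at -210, a motif found in 7.26% of windows, and 3 CCAAT boxes, a motif in 34.6% of windows. In the MLXIP window (chr12:122078506-122078805) a cAMP response element stood at -57, a motif in 1.85% of windows. TXNIP also had another window (chr1:145995695-145995994), not printed here, which held no match to the 5 motifs. A match describes the letters and is not a measured site. The 5 motifs were chosen with the member sequences in view.

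Signals are probe set intensities, each array scaled to a common trimmed mean. A floor of 23.8, the overall median after scaling, replaced lower values before log2 was taken, and a fold with 1 side under the floor is a lower bound. Of the 14 probe sets, 9 were above the floor on all 4 arrays and 3 on none. The brightest probe set stands for its gene, a gene counts as higher or lower at 2-fold, and levels are compared between arrays, never between probe sets. The U937 label was checked against 10 myeloid markers. Of the 8 on the table, 5 were above the floor on all arrays, LYZ and CEBPA well above it, and FCGR1A and CD14 were below it on all. The summed signal of the 8 was 9814 in the combination, 10856 with ultrasound only, 9992 with Sonazoid only and 10381 in control. Of the 20 markers of other cell types on the table, those above the floor on all arrays were NKG7 (2771 to 3197 over the arrays), PECAM1 (648 to 810), CD79A (72.5 to 107), COL1A1 (81.2 to 131) and HBB (34.9 to 63.4). CD3D, GNLY, CD79B, PPBP, EPCAM, KRT18 and VWF were below it on every array.

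**Figure D1:**
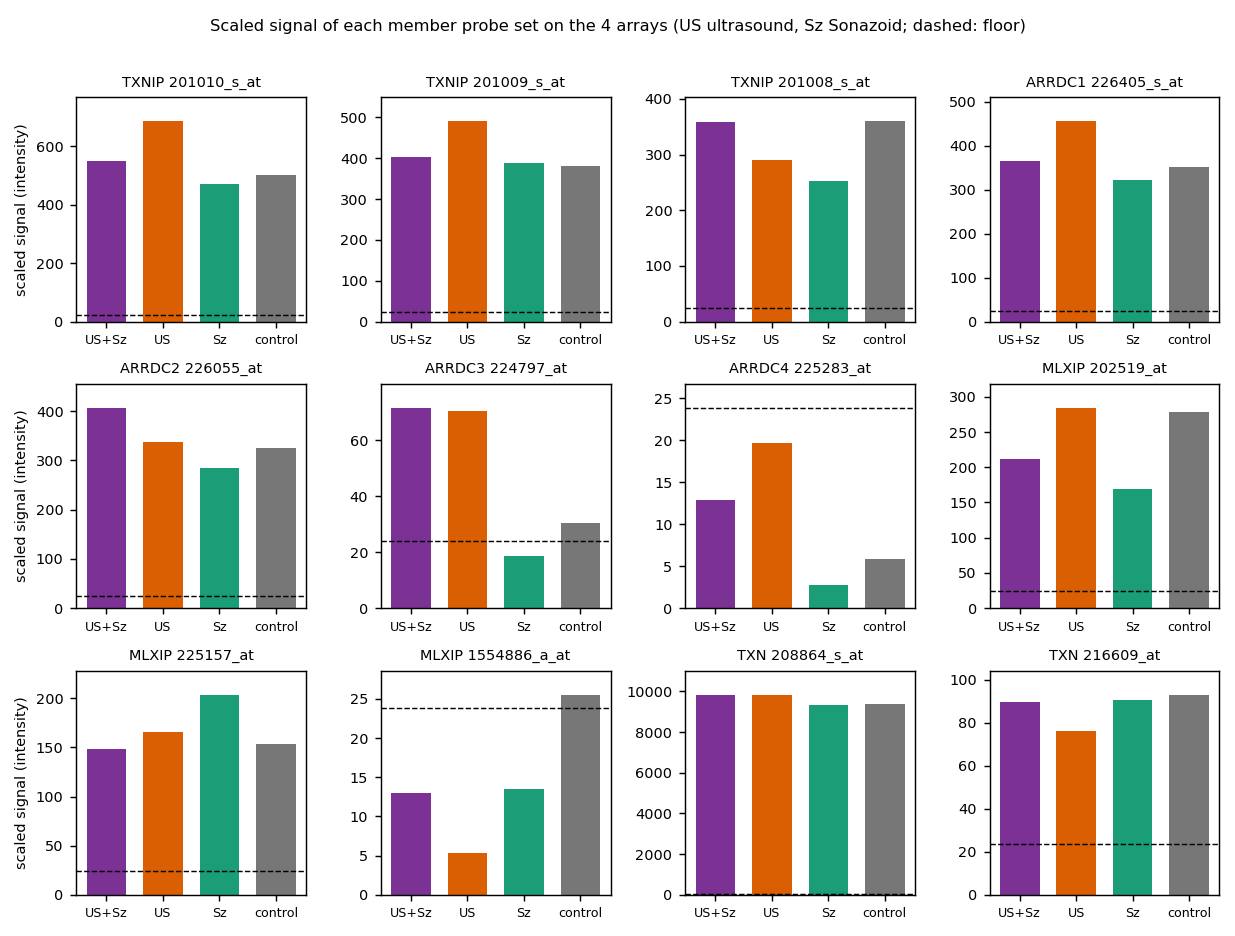
Scaled signal (intensity, axis from 0) of the 11 member probe sets above the floor on at least 1 array and of the ARRDC4 probe set, 1 bar an array, in the order combination (US+Sz), ultrasound only (US), Sonazoid only (Sz) and control; the dashed line is the floor of 23.8. ARRDC3 stands at 71.4 and 70.3 on the arrays with ultrasound, against 18.6 and 30.4 on those without, and the brightest TXN probe set is nearly level.

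ARRDC3, which links NEDD4 ligases to adrenergic receptors and integrins and has been tied to energy expenditure in mice, was the member that differed most. Its single, gene-specific probe set (224797_at) stood at 71.4 in the combination, 70.3 with ultrasound only, 18.6 with Sonazoid only and 30.4 in control. Both arrays with ultrasound were higher than both without, and the Sonazoid-only value was under the floor. How many of all genes have this order of arrays was not counted. In the combination ARRDC3 was 2.35-fold higher than in control, and with ultrasound only 2.31-fold higher than in control. Against Sonazoid only the combination was at least 3.00-fold higher. These values came from bulk RNA, where a change in all cells and a change in some of them cannot be told apart. The signal was dim on every array, under 100.

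ARRDC3 was the 1 member of 6 measured that reached 2-fold in each of the comparisons where ultrasound was added. Among all genes, 1.39% were at least 2-fold higher in the combination than in control, 1.65% with ultrasound only than in control, and 1.46% in the combination than with Sonazoid only. The number of members 2-fold lower was 0 in each, where 0.872%, 0.721% and 0.711% of all genes were. Among genes with a mean signal under 100, as ARRDC3 had, the shares at least 2-fold higher in these comparisons were 2.75%, 3.36% and 3.11%. In the combination against control 91 of 12962 genes had a larger positive log2 difference than ARRDC3, and with ultrasound only against control 109 of 13043 had one. The pair combination and Sonazoid only, both kept for 3 h after treatment, has no array in common with the pair ultrasound only and control. With a pseudocount of 16 in place of the floor, ARRDC3 had log2 differences of 0.91 and 0.89 over control in the combination and with ultrasound only, just under 2-fold, and 1.34 in the combination over Sonazoid only.

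Adding Sonazoid to ultrasound moved ARRDC3 little: the log2 difference of the combination from ultrasound only was 0.02, and 0.24 with the values as deposited. The departure from additivity, the ultrasound difference with Sonazoid minus that without, was at least 0.37 on the log2 scale, with the Sonazoid-only array at the floor. ARRDC3-AS1, the antisense RNA at the same locus, stood at 46.9 in the combination, 50.7 with ultrasound only, 53.9 with Sonazoid only and 66.8 in control. Its highest array was control, whereas ARRDC3 was lowest with Sonazoid only. These levels were dim, under 100 on every array, and a relation between the sense and antisense RNAs was not tested.

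ARRDC4, the close relative of TXNIP that also limits glucose uptake, was under the floor on every array. Its probe set 225283_at read 12.9 in the combination, 19.7 with ultrasound only, 2.73 with Sonazoid only and 5.91 in control. Values under the floor have no order, so no fold is given.

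TXNIP itself differed by less than 1.5-fold between any pair of arrays. Its brightest probe set (201010_s_at) stood at 549 in the combination, 685 with ultrasound only, 470 with Sonazoid only and 499.7 in control. The ultrasound-only array was the highest, 1.37-fold above control and a log2 difference of 0.45, larger than that of all but 10.5% of genes. The combination was 1.10-fold above control and 1.17-fold above Sonazoid only.

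The other 2 TXNIP probe sets did not follow a single pattern. Probe set 201009_s_at read 404 in the combination, 490 with ultrasound only, 389 with Sonazoid only and 382 in control, again highest with ultrasound only. Probe set 201008_s_at read 359 in the combination, 291 with ultrasound only, 253 with Sonazoid only and 359.6 in control. Here the ultrasound-only array was below control, with a log2 difference of -0.31, where the other probe sets had 0.45 and 0.36. The mean log2 of the 3 put ultrasound only 0.17 above control. All 3 carry the _s_ suffix, which marks probes that can match more than 1 transcript, and the sources used here do not say which transcript each reads.

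**Figure D2:**
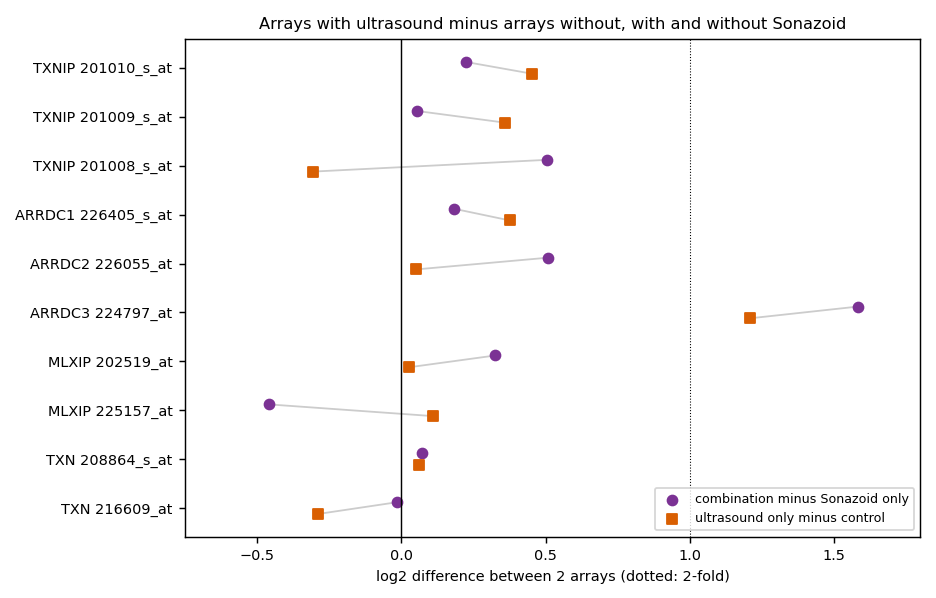
Log2 differences of member probe sets above the floor on at least 3 arrays: combination minus Sonazoid only (purple circles) and ultrasound only minus control (orange squares), pairs that share no array; the dotted line is 2-fold. ARRDC3 lies past 2-fold in both (1.58, a lower bound, and 1.21), while TXNIP 201008_s_at (0.50 and -0.31) and MLXIP 225157_at (-0.46 and 0.11) lie on opposite sides of 0.

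ARRDC1, which recruits the budding machinery for small vesicles at the plasma membrane, stood at 366 in the combination, 456 with ultrasound only, 322 with Sonazoid only and 351 in control (226405_s_at). As with the brightest TXNIP probe set, ultrasound only was highest, 1.30-fold above control, and Sonazoid only lowest. The combination was 1.25-fold lower than ultrasound only, as was the brightest TXNIP probe set, whereas TXNIP 201008_s_at was higher (log2 0.30). With the values as deposited, ARRDC1 and the brightest TXNIP probe set each had a log2 difference of -0.10 in that comparison. Its other probe set was under the floor on all arrays. ARRDC1-AS1, the antisense RNA, had another order, 58.9 in the combination, 53.7 with ultrasound only, 89.3 with Sonazoid only and 61.4 in control.

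ARRDC2, an alpha-arrestin whose cargo is less well known, was highest in the combination. The gene-specific probe set (226055_at) stood at 406 in the combination, 337 with ultrasound only, 285 with Sonazoid only and 325 in control. The combination was 1.42-fold above Sonazoid only and 1.25-fold above control, whereas ultrasound only was 1.04-fold above control. Of all genes, 7.31% had a larger positive difference in the combination against Sonazoid only.

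MLXIP, the sensor that drives TXNIP transcription, had 2 gene-specific probe sets above the floor on all arrays, which differed in sign in both comparisons with Sonazoid only (against control, and the combination against it). Probe set 202519_at stood at 211 in the combination, 284 with ultrasound only, 169 with Sonazoid only and 279 in control. It was lower on both arrays with Sonazoid than on both without, an order not counted over all genes. With Sonazoid only it was 1.65-fold below control, the 1 member past 1.5-fold in that comparison, where 4.29% of all genes were at least 1.5-fold lower. Probe set 225157_at stood at 148 in the combination, 166 with ultrasound only, 204 with Sonazoid only and 154 in control, so here Sonazoid only was the highest array. The pair of probe sets thus disagreed on the direction of the Sonazoid-only difference (log2 -0.72 and 0.41). Of the other 2, 1 was above the floor in control alone, at 25.5, and 1 on no array.

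TXN, the small oxidoreductase that TXNIP binds, differed least. The brightest probe set (208864_s_at) stood at 9841 in the combination, 9817 with ultrasound only, 9354 with Sonazoid only and 9400 in control, a spread of 1.05-fold between the highest and lowest array. The gene-specific probe set 216609_at, far dimmer, stood at 89.8 in the combination, 76.3 with ultrasound only, 90.7 with Sonazoid only and 93.2 in control, with ultrasound only 1.22-fold below control.

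With Sonazoid only, 0 of 6 measured members were 2-fold higher or lower than in control, where 0.652% of all genes were higher and 0.715% lower. All 6 brightest probe sets lay at or below control, ARRDC3 by a bound, but the signs of TXNIP and TXN turned with the values as deposited, and that of TXN also under quantile normalisation. In the combination against ultrasound only, 0 of 6 members were 2-fold higher or lower, against 0.7% and 1.16% of all genes. The median log2 difference of the 6 members was 0.10 in the combination against control, 0.22 with ultrasound only against control, -0.16 with Sonazoid only against control, 0.28 in the combination against Sonazoid only and -0.16 in the combination against ultrasound only, the last of which was 0.06 with the values as deposited. Over all genes these medians lay between -0.01 and 0.02.

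**Figure D3:**
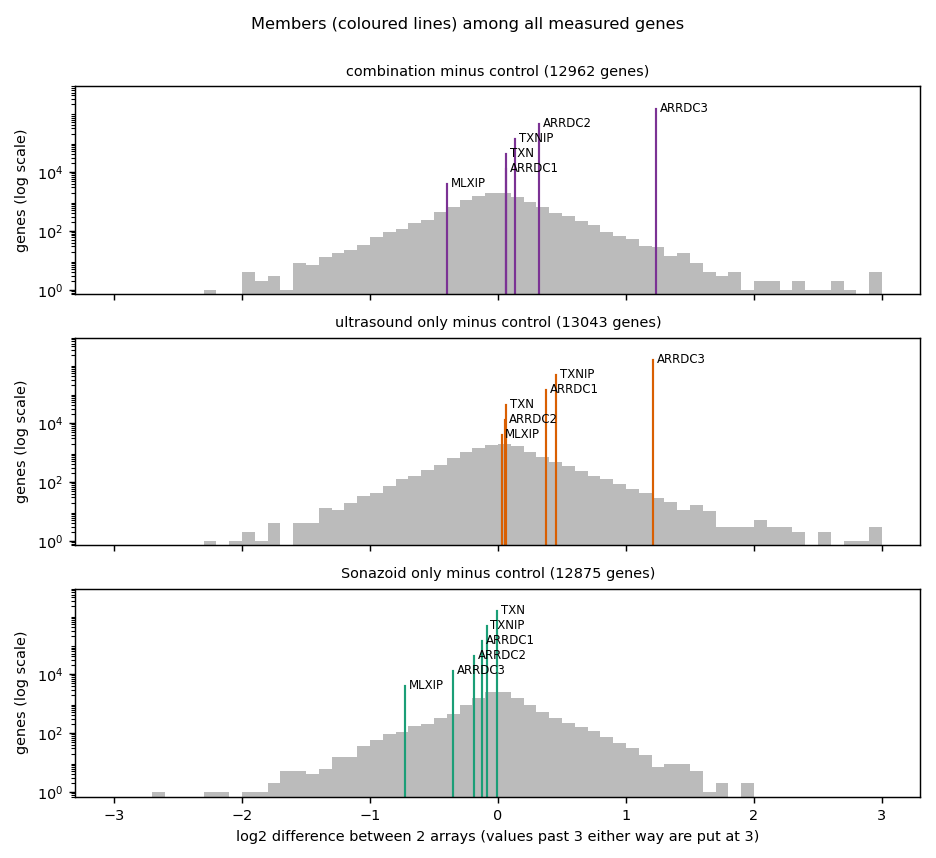
Log2 differences of all measured genes (grey, number of genes on a log axis) and of the 6 measured members (coloured lines, with line heights chosen only to separate the names) for the combination, ultrasound only and Sonazoid only, each minus control. ARRDC3 lies in the upper tail at 1.23 and 1.21 in the upper panels and at -0.35, a bound, in the lowest, where MLXIP is farthest from 0 at -0.72.

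Likeness of pattern was taken as the distance over the 3 log2 differences from control. ARRDC3 entered with its Sonazoid-only value at the floor, so its distances rest on a bound. The genes nearest to it among 10628 above the floor on all arrays were CBLB, a ubiquitin ligase that damps immune receptor signals (distance 0.28), KIAA0513 (0.32), TICAM1, an adaptor of Toll-like receptors (0.32), the chemokine CXCL2 (0.34) and AHR, the aryl hydrocarbon receptor (0.35). CBLB stood at 139 in the combination, 132 with ultrasound only, 57.8 with Sonazoid only and 63.0 in control, and AHR stood at 678 in the combination, 644 with ultrasound only, 238 with Sonazoid only and 254 in control. With the Sonazoid-only value left under the floor, an alternative chosen after seeing the data, the nearest were CXCL2 (0.30), the stress-induced factor ATF3 (0.33), CBLB (0.61), TICAM1 (0.64) and the lamin gene LMNA (0.65). Because values under the floor have no order, this second set of neighbours rests on an unmeasured level. Nearest to TXNIP were PKIG, an inhibitor of protein kinase A (0.01), the G protein subunit GNB2 (0.04), HMGN5 (0.04), FAM89B (0.05) and GTF2H2B (0.05). TXNIP entered with its brightest probe set alone. Its probe set 201008_s_at had other log2 differences from control: -0.0043 in the combination, -0.31 with ultrasound only and -0.51 with Sonazoid only. The neighbours of that probe set were not sought. Of 10627 genes 448 lay within 0.25 of TXNIP, whose log2 differences from control were small (0.14, 0.45 and -0.09), and 0 lay within 0.25 of ARRDC3. ARRDC3 was taken for its wide range, and genes with an array under the floor, as it had, were not candidates. The counts for TXNIP and ARRDC3 therefore cannot be compared.

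The genes around TXNIP were taken as 7 pathway lists, which held 5 to 20 measured genes in the combination against control. Of the 12962 genes measured in that comparison, 1.39% rose and 0.872% fell by 2-fold or more. The lists are too short for a count of 0 or 1 to show a departure from those shares. In the AMPK and energy stress list, the other main route of energy sensing, 1 of 18 measured genes was 2-fold higher and 0 lower in the combination than in control, with a list median of 0.17 (log2) beside -0.0030 over all genes. That gene was DDIT4, a stress-induced inhibitor of mTORC1, at 1666 in the combination, 1700 with ultrasound only, 549.7 with Sonazoid only and 538 in control. Like ARRDC3 it was higher on both arrays with ultrasound, 3.10-fold and 3.16-fold above control. SESN2, which signals low leucine to mTORC1, was 1.37-fold above control in the combination, 1.85-fold with ultrasound only and 1.42-fold with Sonazoid only. FOXO1, a forkhead factor, had a log2 difference of -0.58 in the combination (93.2, against 139 in control), with another probe set at log2 0.06, and PRKAB1, an AMPK subunit, 1.31-fold higher, with another at -0.15.

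In the glucose list 1 of 12 measured genes was 2-fold higher and 0 lower in the combination than in control (median 0.03). PFKFB4, which sets the level of an activator of glycolysis, stood at 203 in the combination, 151 with ultrasound only, 125 with Sonazoid only and 96.4 in control, so every treated array was above control. The glucose transporter SLC2A3 was 1.37-fold higher in the combination, at 262 against 192 in control, and its other 2 probe sets lay between 0.24 and 0.56 (log2). The hexokinases HK1 and HK2, which make the hexose phosphate that MLXIP senses, were 1.39-fold and 1.37-fold lower in the combination.

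The list labelled MLX and MondoA partners also holds MAX and other genes of the MAX network, among them MXI1, MXD3 and MGA. Of its 7 measured genes 0 were 2-fold higher or lower in the combination than in control, with a median of -0.27. MLX itself had a log2 difference of -0.19 in that comparison, with its 4 other probe sets also below 0, and MNT one of -0.27. MAX and MXI1 had log2 differences of -0.40 and -0.41 and MXD3 one of -0.38, with another MAX probe set at 0.24, and MGA had one of 0.51, with 2 other probe sets on the opposite side. MXD1, a repressor that pairs with MAX and was named after its values were seen, stood at 162 in the combination, 245 with ultrasound only, 96.2 with Sonazoid only and 163 in control. Ultrasound only thus gave 1.51 times the control level of MXD1, Sonazoid only a level 1.69-fold lower than control, and MXD3 was 1.70-fold lower in the combination than with Sonazoid only. In the combination against control another MXD1 probe set was at log2 0.71, where the brightest was at -0.0088, or 0.17 with the values as deposited. MLXIPL (ChREBP), the liver-type relative of MLXIP, was under the floor on every array. Of 20 thioredoxin and glutaredoxin genes 0 reached 2-fold in any comparison, and the median was 0.01 in the combination against control. The most different were TXNRD2, the mitochondrial thioredoxin reductase (-0.49), GLRX (-0.36, with another probe set at 0.13), TXNDC12 (-0.21) and GLRX5 (0.21).

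Of 5 other measured arrestin-fold genes and 9 NEDD4 family ligases and adaptors, 0 were 2-fold higher or lower in the combination. The arrestin-fold median was -0.12, but 0.06 with the values as deposited. With ultrasound only against control it was 0.28, with all 5 genes above 0, and 0.23 as deposited. In the combination against ultrasound only it was -0.44, with 2 of the 5 above 0. VPS26C, VPS26A, VPS26B and RGP1 had log2 differences of 0.48, 0.13, -0.22 and -0.36 in the combination against control. The ligase median was 0.01, but -0.0032 under quantile normalisation. NEDD4, WWP1, NDFIP1 and SMURF1 had log2 differences of -0.43, 0.28, -0.26 and 0.34 in the combination against control, with another SMURF1 probe set at -0.27. SMURF1 stood at 173 with ultrasound only, its highest array, against 102 in control. Of the 7 genes of the NLRP3 inflammasome, with which TXNIP has been reported to interact, 0 reached 2-fold in any comparison. The median was -0.16 in the combination against control, but 0.02 with the values as deposited. GSDMD, IL1B, NLRP3 and CASP1 had differences of -0.23, -0.24, -0.19 and -0.16, with other probe sets of IL1B and NLRP3 above 0, those of CASP1 between -0.08 and 0.60, and the brightest of CASP1 at 0.02 as deposited.

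**Figure D4:**
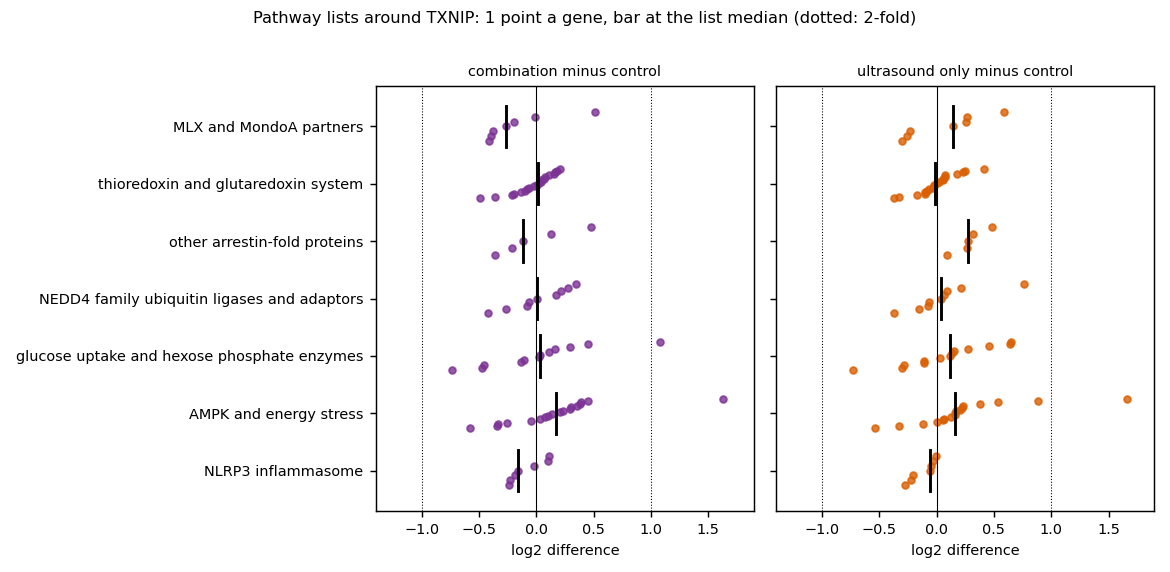
Log2 differences of the measured genes of the 7 pathway lists, 1 point a gene, for the combination minus control (purple) and ultrasound only minus control (orange); black bars are list medians and dotted lines 2-fold. DDIT4 is the point at 1.63 and 1.66 in the AMPK list and PFKFB4 the point at 1.08 in the glucose list of the left panel.

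Genes that share the member motifs were also counted. Of 17 measured genes with the carbohydrate response element in their window, TXNIP included, 0 were 2-fold higher or lower in the combination than in control. Their median was 0.01 there, 0.06 with ultrasound only against control and, for 16 measured, 0.19 in the combination against Sonazoid only. Over all measured genes with a window these medians were -0.0048, 0.02 and -0.0030. Of 107 measured genes with the forkhead motif 2 were 2-fold higher in the combination, ARRDC3 and MS4A14 (1.87%, beside 1.39% of the 10495 measured genes with a window), and 0 were lower. With ultrasound only 5 of 109 were higher (4.59% beside 1.53%), ARRDC3 among them, and 2 lower (1.83% beside 0.541%). Among all genes with a mean signal under 100, 3.36% were higher with ultrasound only, and the motif holders were not matched for signal. The motif was taken with the ARRDC3 window in view, so counts that include ARRDC3 are not an independent check. The motif holders had a median of 0.01 in the combination and -0.02 with ultrasound only, both against control.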

How the data were processed

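RNA from 4 cultures of U937 cells was measured on 4 arrays, 1 per group, grouped by the agent label. The deposited values are linear probe set intensity values, from 0.0486 to 21728; per the labels' protocols, RNA was treated with DNase and labelled with a one-cycle kit from the 3' end. No source used here gives the summarisation method, any scaling by the authors or detection calls, and the number of arrays limits the precision.

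Each array was multiplied by 1 factor (0.923 to 1.07) to a common mean after trimming 2% at each end, since trimmed means differed 1.16-fold. Lower values were raised to a floor, the median of the scaled table. Of 54675 probe sets 41097 had 1 symbol, 1801 several and 11777 none; 41043 symbols were updated through Entrez identifiers (RefSeq, GRCh38.p14), and the 62 control probe sets were left out. With the brightest probe set for each gene, 13965 genes exceeded the floor somewhere. The procedure was tested on simulated data (Python 3.11.15, numpy 2.4.6, pandas 2.3.3). Noise there was small and changes were set only in bright probe sets, so that test does not cover dim signals such as ARRDC3. The members and lists were chosen with earlier results of these data known. Named genes were all members and up to 4 genes of each list with the largest differences between combination and control. The 5 genes nearest in pattern to TXNIP and to ARRDC3 were also named. MLX, MNT, MLXIPL, MXD1, ATF3, LMNA, MS4A14 and the antisense RNAs were named after values were seen. Alternatives were no scaling, quantile normalisation, a pseudocount of 16, a floor at the 75th percentile, the mean of a gene's probe sets, gene-specific probe sets, and 1.5-fold as the threshold.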

Additional observations from a re-analysis of the deposited data

Results flagged for a closer look

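Where the sign of an effect was opposite with and without the other agent, the member is listed here; with 1 array per group these differences were not tested. The ultrasound difference was 0.50 (log2) with Sonazoid and -0.31 without it for TXNIP probe set 201008_s_at, and -0.46 with and 0.11 without for MLXIP probe set 225157_at. The Sonazoid difference was 0.30 with ultrasound and -0.51 without for TXNIP 201008_s_at, and -0.28 with and 0.03 without for TXNIP 201009_s_at. For ARRDC2 the Sonazoid difference was 0.27 with ultrasound and -0.19 without, and for MLXIP 225157_at it was -0.16 with ultrasound and 0.41 without, but 0.05 with and 0.50 without in the values as deposited, with no reversal. For TXN probe set 216609_at it was 0.23 with ultrasound and -0.04 without, and for 208864_s_at 0.0035 with and -0.0070 without. Neither TXN reversal held in the values as deposited (0.45 and 0.05 for 216609_at, 0.22 and 0.08 for 208864_s_at), and that of 208864_s_at was also lost under quantile normalisation (0.07 and 0.07). The others kept opposite signs under both scalings. In TXNIP and MLXIP another probe set of the same gene did not show the ultrasound reversal.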

How the results depend on the processing

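The count of members 2-fold higher was 1 in the combination against control, with ultrasound only against control and in the combination against Sonazoid only, and each rested on ARRDC3. With a pseudocount of 16 it was 0 against control in the combination and 0 with ultrasound only. With the floor at the 75th percentile (151), which leaves ARRDC3 unmeasured, it was 0 in all 3 comparisons. At 1.5-fold, 1 member was lower with Sonazoid only, MLXIP. The other counts did not change under the alternatives run, and no member at 2-fold changed sign. The median departure from additivity, 0.15, ranged from 0.01 to 0.34. Signs turned for 3 of 30 member differences without scaling, 1 of 30 under quantile normalisation, 2 of 30 with the mean of probe sets and 3 of 20 with gene-specific probe sets. Without scaling the median of all genes moved by 0.17 in the combination against control and by 0.21 against ultrasound only. Genes higher and lower then numbered 301 and 73 (180 and 113 with scaling) against control, 221 and 85 (92 and 152) against ultrasound only, and 114 and 67 (84 and 92) for Sonazoid only. No paired analysis was possible because each group had 1 array. Dim signals limit ARRDC3 and leave ARRDC4 unmeasured.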
